A study of Rattus norvegicus with 12 samples.

Results

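Toll-like receptors and the proteins that pass on their signal were followed in neonatal rat ventricular myocytes (NRVMs) through 10 genes. They were taken by name, as the rows of the deposited counts and FPKM values that carry one of these symbols. The table holds 18483 genes in all. The 10 comprise the receptors Tlr2, Tlr3, Tlr4 and Tlr7 (NCBI genes 310553, 364594, 29260 and 317468), the co-receptor Cd14 (60350), the adaptors Myd88 (301059) and Ticam1 (363328), the kinases Irak1 (363520) and Irak4 (300177) and the ubiquitin ligase Traf6 (311245).

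NRVMs are heart muscle cells isolated from newborn Sprague-Dawley rats and cultured with insulin, transferrin and selenium. RNA was sequenced from 4 groups with 3 biological replicates each, 12 samples in all. siNeg cultures received a control siRNA, and siSlc39a2 cultures received an siRNA against Slc39a2, a zinc importer of the plasma membrane, so every culture was transfected. siNeg PE and siSlc39a2 PE cultures were given phenylephrine (PE), an α1-adrenergic agonist used to drive hypertrophic growth, from 12 h after transfection for the 36 h that the labels state. The study's culture methods state another duration, and samples were grouped by condition alone. The siRNA was of a single sequence, so effects of that sequence and of losing Slc39a2 cannot be told apart.

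Toll-like receptors recognise microbial molecules and products of damaged cells. Tlr2 and Tlr4 work at the cell surface, on lipoproteins and on lipopolysaccharide respectively, whereas Tlr3 and Tlr7 sit in endosomes and bind double-stranded and single-stranded RNA. All of them but Tlr3 signal through the adaptor Myd88, the kinases Irak4 and Irak1 and the ligase Traf6 towards NFκB, and Tlr3 and internalised Tlr4 use the adaptor Ticam1 (TRIF) towards interferon genes. Cardiomyocytes as well as the macrophages of the heart are known to carry several of these receptors.

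Promoter sequences are shown for Tlr2, Tlr3 and Myd88, the 3 genes whose window held a match to a motif searched. Tlr4, which rose after knockdown as Tlr2 and Tlr3 did, held none. RefSeq sequences of the GRCr8 build were used for 7 of the 10 genes, and the 250 bases before the annotated start were searched on both strands. Capitals mark the motif match in each line, read 5′ to 3′ along the gene.
Tlr2 (chr2:171504724-171504793, minus strand, match from 206 bases before the start): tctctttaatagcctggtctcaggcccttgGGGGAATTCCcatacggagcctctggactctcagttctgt
Tlr3 (chr16:53554666-53554716, plus strand, match from 237 bases before the start): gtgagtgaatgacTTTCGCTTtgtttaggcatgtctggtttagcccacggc
Myd88 (chr8:127956231-127956276, minus strand, match from 16 bases before the start): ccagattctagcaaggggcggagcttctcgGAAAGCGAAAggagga

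The Tlr2 match is an NFκB form, GGG and TTCC set apart by any 3 bases. It was found in 1 of the 7 promoters searched and in 4.53% of all 33469 RefSeq promoters of the same length. The Myd88 match is the core of the interferon-stimulated response element, GAAA and GAAA set apart by any 2 bases. It was also found in 1 of the 7 and in 3.41% of all promoters. The capitals in Tlr3 mark a shorter form of that element, AA and GAAA set apart by any 2 bases, which is read here on the opposite strand. The shorter form was added after the sequences had been seen. It was found in 3 of the 7 promoters, namely those of Tlr2, Tlr3 and Myd88, and in 23.3% of all, and in Myd88 it lies inside the longer match. The AP-1 form TGANTCA was present in the Myd88 promoter, 208 bases before the start, and in 6.34% of all promoters. None of the forms was found in the windows of Tlr4, Cd14, Irak1 and Irak4. A match describes letters in a window and was not tested as a binding site.

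Slc39a2 (305846), the gene targeted, was covered by 50, 50 and 59 counts in siNeg cultures, and by 21, 11 and 2 after its knockdown. With PE it had 95, 198 and 182 counts in siNeg PE and 31, 25 and 38 in siSlc39a2 PE. On knockdown it fell by 2.35 on the log2 scale (standard error 0.46, adjusted p = 9.80e-04) without PE and fell by 2.33 (standard error 0.38, adjusted p = 2.24e-04) with PE by edgeR, so the target was lower where the labels say so. Total expected counts were between 24065539 and 28603854 per sample, and no replicate was a copy of another (counts of paired replicates had a chi-square of 4.69 to 34.1 for each degree of freedom).

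The cardiomyocyte label was checked against 10 genes of the contractile apparatus, its calcium handling and its energy supply. Their summed level was between 49030 and 50200 CPM (counts scaled to the normalised library size) in siNeg and between 37580 and 39020 in siSlc39a2. Macrophage markers, on a list of 16 genes of which 15 are in the table, summed to between 42.3 and 48.3 CPM in siNeg, 24.5 and 27.4 in siNeg PE, 27.3 and 30.4 in siSlc39a2 and 16.6 and 19.5 in siSlc39a2 PE. Fibroblast markers, 9 genes, summed to between 13870 and 18350 CPM in siNeg and 5339 and 5646 in siSlc39a2. Endothelial markers, 8 genes, summed to between 19.7 and 20.8 CPM in siNeg and 17.3 and 18.9 in siSlc39a2. The cultures carried RNA of other cell types at every condition. Without PE the sums of every list, that of cardiomyocyte markers included, were lower after knockdown without overlap. With PE the cardiomyocyte, macrophage and fibroblast sums were lower as well, whereas the endothelial sums overlapped. A few abundant genes weigh heavily in these sums. Mean CPM was 15860 in siNeg and 7407 in siSlc39a2 for Myh6, and 10760 and 3351 for Col1a1. In siSlc39a2 against siNeg, 26.4% of all genes tested were lower and 22.8% higher by adjusted p. Of the 10 cardiomyocyte markers there, 6 were lower and 4 did not pass. Among the 4 were Myh7 and Tnnt2 (log2 fold changes -0.05 and 0.08, adjusted p = 0.564 and 0.498). Of the 9 fibroblast markers there, 7 were lower and 1, Tcf21, was higher (log2 fold change 0.34, adjusted p = 0.00236). Pdgfra did not pass (log2 fold change 0.12, adjusted p = 0.439). Myh6, Col1a1, Myh7, Tnnt2, Tcf21 and Pdgfra were named after their values were seen. In bulk RNA, fewer cells of a type and less RNA of these genes per cell cannot be told apart.

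**Figure D1:**
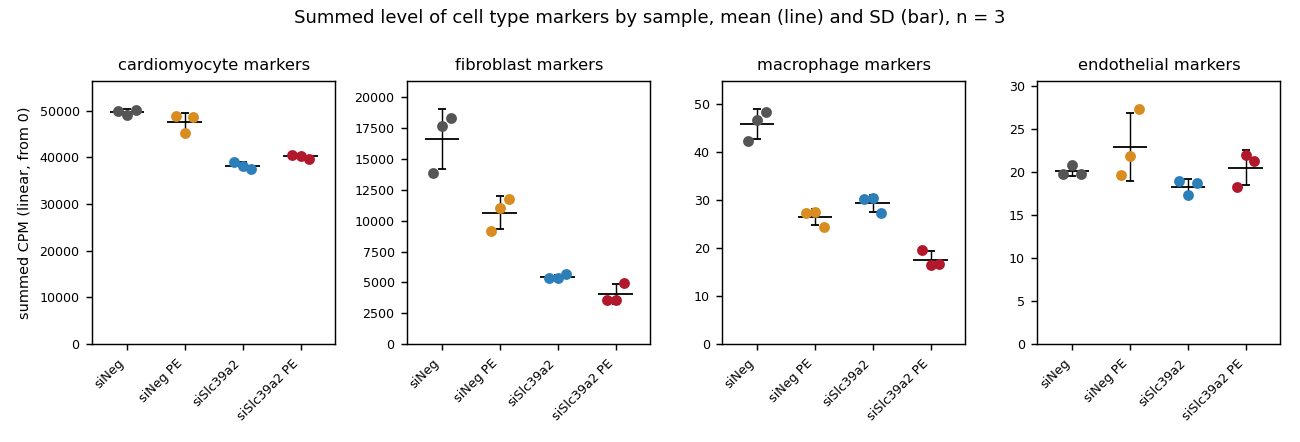
Summed CPM (linear axes from 0) of cardiomyocyte, fibroblast, macrophage and endothelial markers in each of the 12 samples, with the mean (line) and SD (bar) of each group of 3. Macrophage markers were at 42.3 CPM or more in siNeg and at 30.4 CPM or less in siSlc39a2, and the sum was lowest in siSlc39a2 PE.

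The first comparison asked how the receptors and adaptors responded to knockdown without PE. The receptors Tlr2, Tlr3, Tlr4 and Tlr7 rose, the co-receptor Cd14 did not pass the test, and of the signalling proteins Myd88 alone passed, with a small rise. At an adjusted p below 0.05, by the quasi-likelihood test of edgeR over 13967 genes, 5 of the 10 were higher, where 22.8% of all genes tested were. None of the 10 was lower, at an adjusted or an unadjusted p below 0.05, where 26.4% of all genes tested were lower by adjusted p. DESeq2 gave none lower as well, whereas limma on log2(FPKM + 1) and on log2(FPKM + 0.1) gave 1, Ticam1 (adjusted p = 0.0167 and 0.0251). Past the threshold of an absolute log2 fold change above 1 with that adjusted p were 4 of the 10, where 4.57% of all genes tested were higher past it. The median log2 fold change of the 10 was 0.27, against -0.02 for all genes tested. Tlr7, 1 of the 5 and of the 4, passed the filter on low counts only through knockdown samples. Its call is therefore in part fixed by the filter, and it also enters the median.

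Tlr2, the lipoprotein receptor, had 4.86, 4.13 and 5.28 CPM in siNeg, against 18.2, 17.7 and 17.5 CPM in siSlc39a2. Every knockdown sample was far above every control, and the knockdown samples lay close together. The difference was 3.75-fold (log2 fold change 1.91, standard error 0.11, adjusted p = 2.17e-08). It was the most precisely measured change among the receptors.

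Tlr3, the endosomal receptor of double-stranded RNA, had 2.96, 4.85 and 3.39 CPM in siNeg and 18.4, 18.3 and 21.8 in siSlc39a2. The groups did not overlap, and the rise was 5.20-fold (log2 fold change 2.38, standard error 0.25, adjusted p = 5.30e-06). Some of its counts are not whole numbers, which means that reads were shared with another gene, so the size of its change carries that uncertainty.

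Tlr4, the lipopolysaccharide receptor, was measured on far fewer reads, with 33, 19 and 15 counts for siNeg against 69, 43 and 63 for siSlc39a2, or 1.303, 0.720 and 0.591 CPM against 2.39, 1.46 and 2.46. The lowest knockdown sample was just above the highest control. The rise was 2.40-fold (log2 fold change 1.26, standard error 0.33, adjusted p = 0.00662). The pooled counts of 175 against 67 give a ratio per depth of 2.39, with a 95% interval for counting error from 1.80 to 3.22 (exact, conditional on the total).

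Tlr7, the endosomal receptor of single-stranded RNA, was close to the limit of detection. Its siNeg samples held 2, 2 and 1 counts, those of siSlc39a2 9, 9 and 14. The pooled counts of 32 against 5 give a ratio per depth of 5.87 (exact 95% interval from 2.27 to 19.3, counting error only). The log2 fold change was 2.48 (standard error 0.77, adjusted p = 0.0172), a value that depends on the prior count of the fit. Without siNeg replicate 3 the adjusted p was 0.0581 and without siSlc39a2 replicate 3 it was 0.0573. Tlr7 passed the filter on low counts only through knockdown samples, so its difference is in part fixed by the filter, and it is better read from its counts.

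Cd14, which hands lipopolysaccharide to Tlr4, had 3.59, 3.79 and 4.69 CPM in siNeg and 3.56, 4.23 and 4.21 in siSlc39a2. The groups overlapped almost wholly (log2 fold change -0.01, standard error 0.15, adjusted p = 0.968). No change of the co-receptor passed the test, while the receptor it serves rose.

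Myd88, the adaptor of Tlr2, Tlr4 and Tlr7, had 39.1, 36.3 and 34.5 CPM in siNeg and 44.4, 43.3 and 41.3 in siSlc39a2. It rose 1.17-fold (log2 fold change 0.23, standard error 0.08, adjusted p = 0.0270), and its reads were shared with another gene. This call was lost, with adjusted p values of 0.0731, 0.10, 0.0836 and 0.0668, when siNeg replicate 2, siNeg replicate 3, siSlc39a2 replicate 1 and siSlc39a2 replicate 2 were left out in turn. Ticam1, the adaptor of Tlr3, had 6.91, 9.17 and 8.04 CPM in siNeg and 6.60, 7.21 and 6.94 in siSlc39a2 (log2 fold change -0.22, standard error 0.13, adjusted p = 0.181).

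Irak1, the kinase recruited by Myd88, had 164, 161 and 160 CPM in siNeg and 156, 153 and 141 in siSlc39a2 (log2 fold change -0.11, standard error 0.05, adjusted p = 0.108). Irak4, which phosphorylates it, differed by -0.08 (standard error 0.10, adjusted p = 0.531). Traf6, the ligase downstream of both, had 3.52, 5.72 and 6.42 CPM in siNeg and 7.81, 5.83 and 5.89 in siSlc39a2, and the groups overlapped (log2 fold change 0.32, standard error 0.19, adjusted p = 0.188). None of these 3 passed the test.

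**Figure D2:**
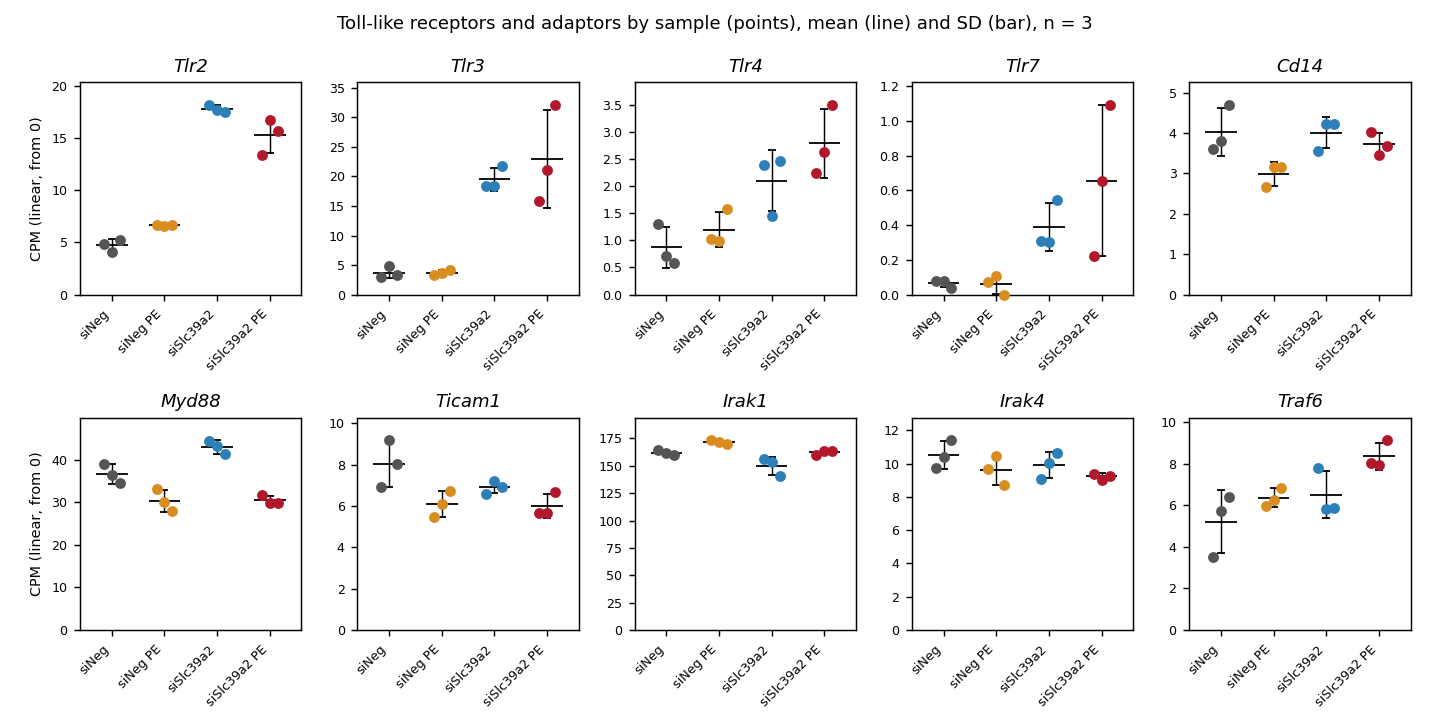
CPM (linear axes from 0) of the 10 genes in each of the 12 samples, with the mean (line) and SD (bar) of each group of 3. Tlr2, Tlr3, Tlr4 and Tlr7 were higher in both siSlc39a2 groups, whereas Irak1 and Irak4 stayed within narrow ranges and Myd88 was highest in siSlc39a2.

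The second comparison asked whether the hypertrophic stimulus alone moved these genes. This comparison shares its siNeg samples with the first and its siNeg PE samples with the one that follows. In control cells PE raised Tlr2 and lowered Cd14, Myd88 and Ticam1, and all of these changes were small. By adjusted p, 1 of the 10 was higher, where 24.0% of all genes tested were, and 3 were lower, where 25.7% were, so neither share stood far from that of all genes. None was past the threshold by edgeR or DESeq2, where 3.80% of all genes tested were higher and 2.80% lower past it, and 4 of the 10 had an unadjusted p below 0.05. The median log2 fold change was -0.05, against -0.01 for all genes tested.

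Tlr2 had 6.71, 6.61 and 6.71 CPM in the siNeg PE samples, all above the siNeg samples, a rise of 1.40-fold (log2 fold change 0.49, standard error 0.11, adjusted p = 0.00397). Tlr3, with 3.24, 3.73 and 4.18 CPM in siNeg PE, overlapped siNeg (log2 fold change -0.01, standard error 0.27, adjusted p = 0.982). Tlr4, at 1.03, 0.985 and 1.58 CPM, overlapped it as well (log2 fold change 0.46, standard error 0.34, adjusted p = 0.281). Tlr7 had 2, 3 and 0 counts in siNeg PE, and up to 3 counts are compatible with a sample at 0, so no change was detectable at this depth.

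Myd88 fell to 33.1, 30.2 and 27.9 CPM in siNeg PE (log2 fold change -0.27, standard error 0.08, adjusted p = 0.0132). Ticam1 fell to 5.49, 6.09 and 6.71 CPM (log2 fold change -0.40, standard error 0.13, adjusted p = 0.0222) and Cd14 to 2.65, 3.17 and 3.16 CPM (log2 fold change -0.43, standard error 0.15, adjusted p = 0.0343). None of these falls was firm. Without siNeg replicate 1 or siNeg PE replicate 3, Myd88 had adjusted p values of 0.0544 and 0.0676. Without siNeg replicate 2, siNeg PE replicate 1 or siNeg PE replicate 2, Ticam1 had 0.104, 0.0743 and 0.0598. Without siNeg replicate 3 or siNeg PE replicate 1, 2 or 3, Cd14 had 0.139, 0.104, 0.0567 and 0.0590. Macrophage markers, of which 14 were tested, moved in the same comparison, with 6 lower and none higher and a median log2 fold change of -0.75. Of all genes tested, 25.7% were lower and 24.0% higher there. The part of macrophages in the fall of Cd14 was not tested.

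The third comparison asked for the effect of knockdown in the presence of PE, and shares no samples with the first. The same 4 receptors rose, each past the threshold, and no adaptor, kinase or ligase passed the test. Tlr7 had 0 to 3 counts in each control sample and passed the filter on low counts only through knockdown samples. Fitted on these 2 groups alone, without Tlr7, 3 genes were past the threshold. By adjusted p, 4 of the 10 were higher, where 29.2% of all genes tested were. None was lower by edgeR or DESeq2 or at an unadjusted p below 0.05, where 28.1% of all genes tested were lower by adjusted p, and limma on log2(FPKM + 1) gave 1, Irak1 (adjusted p = 0.0231). The 4 were also past the threshold, where 6.03% of all genes tested were higher past it. The median log2 fold change of the 10 was 0.35, against 0.01 for all genes tested.

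Tlr2 had 13.4, 16.7 and 15.7 CPM in siSlc39a2 PE, every value above the 6.71 CPM of the highest siNeg PE sample. It was 2.29-fold higher (log2 fold change 1.19, standard error 0.11, adjusted p = 1.46e-06). Tlr3 had 15.8, 21.0 and 32.1 CPM and was 6.17-fold higher (log2 fold change 2.62, standard error 0.24, adjusted p = 1.96e-06). The siSlc39a2 PE samples were thus spread over a wider range for Tlr3 than for Tlr2.

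Tlr4 had 2.24, 2.62 and 3.49 CPM in siSlc39a2 PE, without overlap with siNeg PE, and was 2.32-fold higher (log2 fold change 1.21, standard error 0.31, adjusted p = 0.00484). Tlr7 was read from 6, 19 and 30 counts in siSlc39a2 PE. Its pooled counts of 55 against 5 give a ratio per depth of 10.9 (exact 95% interval from 4.41 to 35.0), and the log2 fold change was 3.35 (standard error 0.71, adjusted p = 0.00143). The spread of Tlr7 between the 3 siSlc39a2 PE samples was wide, and replicate 1 was the lowest for Tlr2, Tlr3, Tlr4 and Tlr7 alike.

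Cd14, at 4.03, 3.45 and 3.67 CPM, lay above the siNeg PE samples without passing the test (log2 fold change 0.31, standard error 0.15, adjusted p = 0.0978). Traf6, at 8.02, 7.97 and 9.13 CPM against 5.97, 6.26 and 6.86, did not pass either (log2 fold change 0.40, standard error 0.19, adjusted p = 0.0881), although it passed with an adjusted p of 0.0221 when these 2 groups were fitted alone. Myd88 overlapped between the groups (31.8, 29.9 and 29.8 CPM, log2 fold change 0.01, standard error 0.08, adjusted p = 0.960). Ticam1, Irak1 and Irak4 differed by -0.02, -0.08 and -0.06 on the log2 scale (standard errors 0.13, 0.05 and 0.10, adjusted p = 0.884, 0.226 and 0.652).

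**Figure D3:**
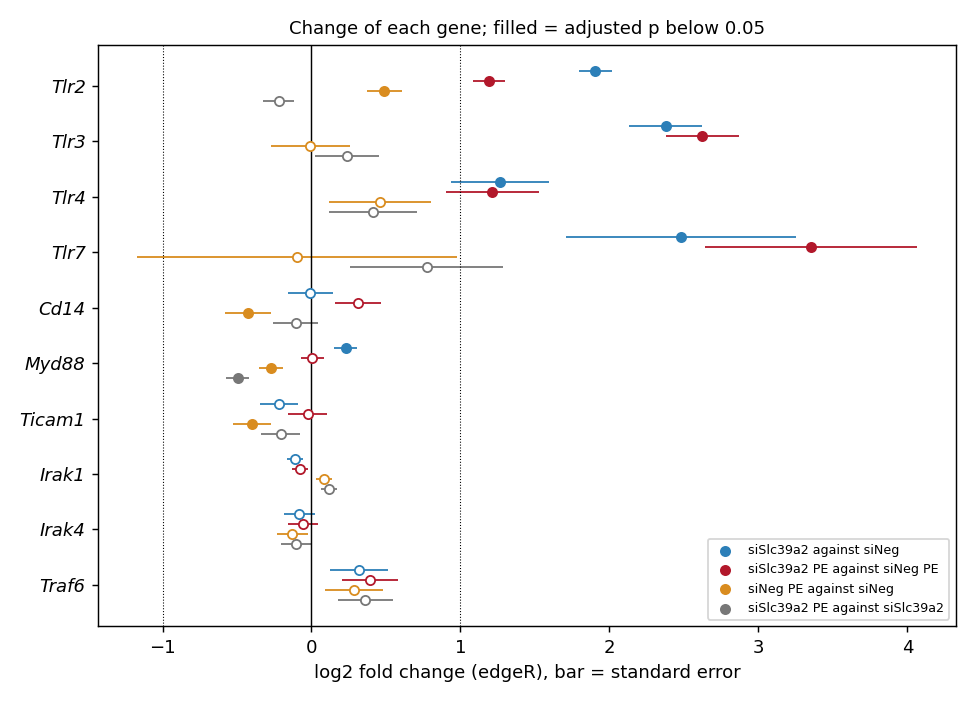
Log2 fold change of each gene (horizontal axis, bars are standard errors of edgeR) in the 4 comparisons, filled where the adjusted p was below 0.05, with dotted lines at -1 and 1. The 4 receptors lie to the right of 1 in both knockdown comparisons, between 1.19 and 3.35, and no gene passes either dotted line among those that passed the test for PE.

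The last pair of groups gave the PE effect within knockdown cells. It shares the siSlc39a2 samples with the first comparison and the siSlc39a2 PE samples with the third. By edgeR, Myd88 was the only one of the 10 that passed, and it fell from 44.4, 43.3 and 41.3 to 31.8, 29.9 and 29.8 CPM, without overlap (0.710-fold, log2 fold change -0.49, standard error 0.08, adjusted p = 1.96e-04). Thus none of the 10 was higher, where 30.7% of all genes tested were, and 1 was lower, where 29.3% were. None was past the threshold by edgeR or DESeq2, where 6.34% were higher and 4.17% lower past it, and 2 of the 10 had an unadjusted p below 0.05. Tlr2 did not pass (log2 fold change -0.22, standard error 0.10, adjusted p = 0.0777). Tlr3, Tlr4 and Tlr7 had 0.24, 0.41 and 0.77 (standard errors 0.22, 0.30 and 0.51, adjusted p = 0.360, 0.247 and 0.210). Without siSlc39a2 PE replicate 1 Tlr7 was past the threshold, with a log2 fold change of 1.15 and an adjusted p of 0.0405.

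Whether the knockdown effect differed with PE was tested as the interaction. Tlr2 was the only one of the 10 to pass, with a log2 difference of -0.71 (standard error 0.15, adjusted p = 0.0227), where 3.61% of all genes tested passed in either direction. Its rise on knockdown was therefore smaller with PE than without it, 2.29-fold against 3.75-fold. The interaction missed the threshold of 0.05 when siNeg replicate 2, siNeg PE replicate 1, siNeg PE replicate 2, siSlc39a2 replicate 1 or siSlc39a2 replicate 2 was left out, with adjusted p values of 0.0671, 0.0529, 0.0567, 0.0685 and 0.0597. For Tlr3, Tlr4 and Tlr7 the interaction was 0.25, -0.05 and 0.87 (standard errors 0.34, 0.44 and 1.25, adjusted p = 0.797, 0.977 and 0.804), so a difference was not detectable, and for Tlr7 the error spans most sizes of effect. For Myd88 it was -0.22 (standard error 0.11, adjusted p = 0.355).

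Levels were compared between genes in FPKM, the values per gene length that the authors deposited. In siNeg, Irak1 was at 47.3 ± 0.719 FPKM (SD, n = 3) and Myd88 at 16.7 ± 0.671, so these 2 stood above all other genes of the 10. Irak4 followed at 4.503 ± 0.429 FPKM. Cd14 at 2.53, Ticam1 at 2.44, Traf6 at 1.90 and Tlr2 at 1.76 FPKM came next, and neighbours among these 4 overlapped between samples. Tlr3 was at 0.897 ± 0.227, Tlr4 at 0.25 ± 0.106 and Tlr7 at 0.0167 ± 0.00577 FPKM, in an order without overlap.

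After knockdown the order changed in the middle and not at either end. In siSlc39a2, Irak1 at 48.0 ± 2.69 and Myd88 at 21.6 ± 0.487 FPKM were again highest. Tlr2 had moved to the third place at 7.14 ± 0.0971 FPKM. Tlr3 at 5.26 ± 0.55 overlapped Irak4 at 4.67 ± 0.430, and both were above Cd14, Traf6 and Ticam1 at 2.82, 2.60 and 2.31 FPKM, whose neighbours overlapped. Tlr4 at 0.673 ± 0.186 and Tlr7 at 0.10 ± 0.0436 FPKM were still the lowest. In siSlc39a2 PE, Tlr2 at 5.94 ± 0.630 and Tlr3 at 5.93 ± 2.09 FPKM were not separable, and Tlr3 overlapped Irak4 at 4.18 ± 0.0416. In siNeg PE, Tlr2 at 2.58 ± 0.0503 FPKM came after Irak4 and overlapped Traf6 at 2.43 ± 0.195.

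**Figure D4:**
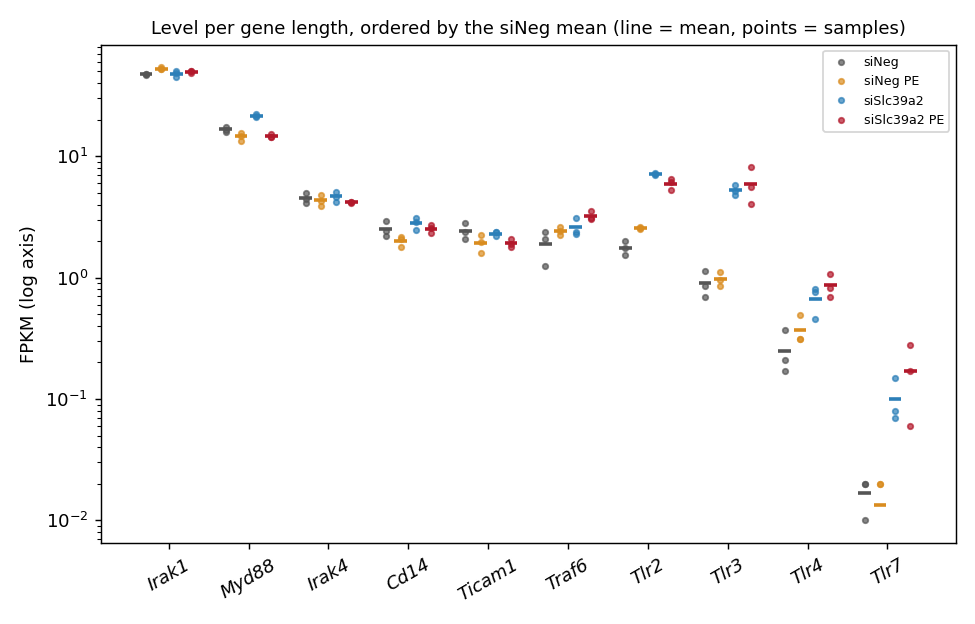
FPKM (log axis) of the 10 genes in the 4 groups, ordered by the siNeg mean, with points for samples and lines for means of 3. A Tlr7 sample of siNeg PE at 0 is not drawn. Irak1 lies near 47.3 to 52.8 FPKM in every group, and Tlr2 and Tlr3 move from 1.76 and 0.897 FPKM in siNeg to 7.14 and 5.26 in siSlc39a2.

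Genes with the most similar pattern were sought among 11740 genes by the root mean square difference of log2 CPM, centred on each gene's own mean, over the 12 samples. Since the 4 groups dominate this measure, it mainly ranks likeness of group means. For Tlr2 the nearest were C1r (0.122), Ripk2 (0.130) and Cnksr1 (0.157). For Tlr3 they were Zc3hav1 (0.186), Trim5 (0.210) and Setdb2 (0.283). For Tlr4 they were Ccdc59 (0.288), Ccdc174 (0.293) and Mterf1 (0.296), and for Tlr7 Washc4 (0.419), Casp12 (0.476) and Nampt (0.506), so the likeness was looser for the receptors with few counts.

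Partners of the receptors were read from a list of 17 other receptors, co-receptors and chaperones, of which 10 passed the filter on low counts. In siSlc39a2 against siNeg, 4 of the 10 were higher and 1 lower by adjusted p, with a median log2 fold change of 0.40. Of all genes tested, 22.8% were higher and 26.4% lower. Ly86, 1 of the 4, had at most 8 counts in a siNeg sample and 4 in a siNeg PE sample. It passed the filter on low counts only through knockdown samples. Its call is therefore in part fixed by the filter, and it also enters the median. Tlr6, which pairs with Tlr2, rose from 0.948, 1.25 and 0.906 CPM to 2.66, 3.29 and 3.35 (log2 fold change 1.58, adjusted p = 5.65e-05), and by 1.81 with PE (adjusted p = 1.56e-05). Tlr1, the other partner of Tlr2, was not tested, with 0 counts in each siNeg sample and between 3.04 and 6.14 in siSlc39a2. With PE it had between 2 and 5.2 counts in siNeg PE and between 5.24 and 8.4 in siSlc39a2 PE. These counts are too few to read a change from. Tlr1 and Tlr6 are close paralogues and had counts that are not whole, so their reads cannot be told apart with certainty. Tlr5 did not pass without PE (log2 fold change 0.32, adjusted p = 0.294) or with it (log2 fold change 0.50, adjusted p = 0.0778). Tlr8, Tlr9, Tlr10, Tlr12 and Tlr13 were not tested, with at most 10 counts in a sample.

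Lbp, which encodes the serum protein that carries lipopolysaccharide to Cd14, went the other way. It had 19.9, 16.3 and 17.5 CPM in siNeg and 4.81, 5.18 and 4.13 in siSlc39a2 (log2 fold change -1.92, adjusted p = 4.60e-08). PE alone raised it to between 45.2 and 47.8 CPM (log2 fold change 1.37, adjusted p = 1.52e-06), and knockdown in the presence of PE lowered it again (log2 fold change -2.42, adjusted p = 3.08e-09). Hsp90b1, the chaperone that folds most Toll-like receptors, was higher with knockdown in the presence of PE (log2 fold change 1.00, adjusted p = 4.49e-04). There, 5 of the 10 tested genes of this list, Ly86 included, were higher and 1 lower by adjusted p. The shares of all genes tested were 29.2% and 28.1%. Ly96 (MD-2, the part of the Tlr4 complex that binds lipopolysaccharide) and Unc93b1 (which brings Tlr3 and Tlr7 to endosomes) are given for their link to the receptors and were chosen after their values were seen. They rose by 0.66 and 0.74 (adjusted p = 0.00360 and 1.12e-04) without PE and by 0.56 and 0.54 (adjusted p = 0.00747 and 0.00109) with it.

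Of 25 other adaptors, kinases and ligases, 24 were tested. After knockdown 8 were higher and 3 lower by adjusted p without PE, with a median log2 fold change of 0.12, and 11 were higher and 3 lower with PE, with a median of 0.35. Over all genes tested, 22.8% were higher and 26.4% lower without PE and 29.2% and 28.1% with it. Whether the list differed from these shares was not tested. Tbk1, the kinase that Ticam1 leads to and that phosphorylates interferon regulatory factors, was 1.02 higher on the log2 scale with PE (adjusted p = 1.31e-04). It rose by 0.94 without PE (adjusted p = 3.79e-04). Syk, a tyrosine kinase of immune cells, was lower without PE (log2 fold change -1.24, adjusted p = 3.48e-04). Ticam2, an adaptor whose mean log2 CPM was below 0, rose by 1.77 without PE (adjusted p = 1.38e-04) and by 0.93 with PE (adjusted p = 0.00906). It had 12 to 16 counts in siNeg and 44 to 56 in siSlc39a2, and was named after its values were seen. Past the threshold, 1 gene of the list was higher and 1 lower without PE. As with the kinases and ligase among the 10 genes, most of this list stayed within a log2 fold change of 1.

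Negative regulators and outputs had larger median changes than the 10 genes, a difference that was not tested. Of 13 negative regulators, 12 were tested, and 10 were higher and 1 lower by adjusted p in either knockdown comparison. Of all genes tested, 22.8% were higher and 26.4% lower without PE, and 29.2% and 28.1% with it. The list, chosen with earlier results of these data known, had median log2 fold changes of 1.07 without PE and 0.96 with it. Socs1, an inhibitor of cytokine signalling, rose from 3.12, 3.22 and 2.33 to 24.8, 21.6 and 23.6 CPM (log2 fold change 3.01, adjusted p = 2.96e-09). Usp18, which removes the ubiquitin-like protein ISG15, rose by 5.23 (adjusted p = 2.56e-13, with shared reads). Trim30, a TRIM protein that restrains NFκB signalling, went from 1, 2 and 3 counts in siNeg to 785, 683 and 879 after knockdown. It passed the filter on low counts only through knockdown samples, so its call is in part fixed by the filter. Several of these genes are also induced by interferon.

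Of 14 outputs, 12 were tested, and 10 were higher by adjusted p without PE and 9 with PE. None was lower in either, by the adjusted or the unadjusted p. Of all genes tested, 22.8% and 29.2% were higher and 26.4% and 28.1% lower. Ifnb1, Il6 and Tnf had at most 0, 9 and 10 counts in a control sample. They passed the filter on low counts only through knockdown samples, so their calls are in part fixed by the filter. Tnf did not pass with PE, and its groups overlapped in both comparisons. The 12 outputs had median log2 fold changes of 1.62 and 1.71. Irf7, a regulator of interferon genes, and the chemokines Cxcl10 and Ccl5 had the largest changes under the rule on named genes, with log2 fold changes of 7.11, 5.72 and 6.15 without PE and 6.48, 6.02 and 4.81 with PE (adjusted p = 1.68e-12, 7.55e-12 and 1.20e-10, then 3.92e-12, 8.81e-12 and 5.39e-09). In siSlc39a2 PE against siSlc39a2, 7 of the 12 outputs were lower and 0 higher by adjusted p, with a median log2 fold change of -0.75. Of all genes tested, 29.3% were lower and 30.7% higher there. Ccl5 was 1 of the 7 (log2 fold change -2.01, adjusted p = 5.76e-07). In siNeg PE against siNeg, by adjusted p, 2 of the other receptors and chaperones were higher and 1 lower, 7 and 5 of the other adaptors, kinases and ligases, 2 and 3 of the negative regulators and 0 and 4 of the outputs. Over all genes tested, 24.0% were higher and 25.7% lower in that comparison.

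**Figure D5:**
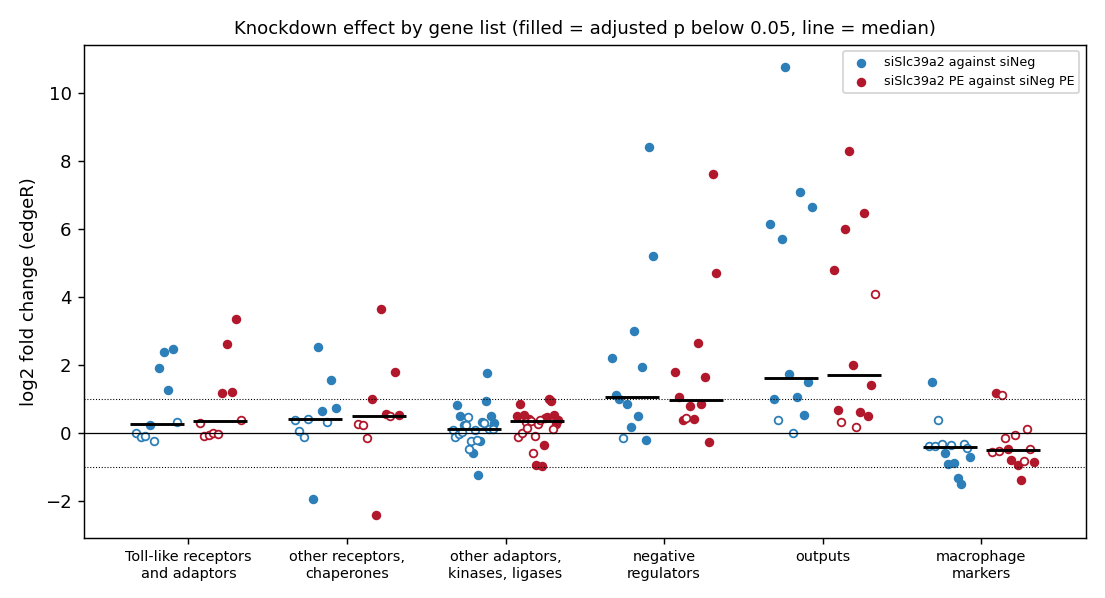
Log2 fold change on knockdown (vertical axis) of each tested gene by list, without PE and with PE, filled where the adjusted p was below 0.05, with the median as a line and dotted lines at -1 and 1. Without PE the medians are 0.27 for the 10 genes, 0.40 for other receptors and chaperones and 0.12 for other adaptors, kinases and ligases. They are 1.07 for negative regulators and 1.62 for the outputs, whereas the macrophage markers have a median of -0.40.

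Macrophages express Tlr2, Tlr4, Tlr7 and Cd14 at high level, so their markers were set beside the receptors. Of 14 macrophage markers tested, 1 was higher and 6 lower by adjusted p in siSlc39a2 against siNeg, with a median log2 fold change of -0.40. In siSlc39a2 PE against siNeg PE 1 was higher and 5 lower, with a median of -0.49. Of all genes tested, 22.8% were higher and 26.4% lower without PE, and 29.2% and 28.1% with it. The marker that was higher in both was Aif1, at 0.513, 0.606 and 0.315 CPM in siNeg and 1.52, 1.49 and 1.05 in siSlc39a2, and Cd68, at 8.41, 9.59 and 10.1 against 6.29, 6.20 and 6.36 CPM, was lower. These examples were chosen after their values were seen. None of the 15 macrophage markers in the table was at 0 throughout a group. The receptors rose in samples whose summed macrophage markers were lower than in the controls. The part of macrophages in the rise of the receptors was not tested.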

How the data were processed

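RNA of NRVMs was sequenced in 4 groups of 3 biological replicates. The authors deposited expected counts per gene, which split reads that match more than 1 gene, together with FPKM values, for 18483 genes. The submitters' processing notes name HISAT, Bowtie2 and the rat build Rnor_6.0 without roles or versions, and the counting program is not given in the sources used here. Counts of 70% of the genes were whole (within 1e-06) in every sample. Of the 10 genes, Tlr3, Myd88 and Irak1 had other counts and are uncertain to that extent.

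Expected counts were rounded, genes kept by filterByExpr (13967, all 10 included) and normalised by TMM, and all 12 samples were fitted in 1 model of 4 groups with edgeR 4.0.16 (R 4.3.3). Comparisons used its quasi-likelihood test, adjusted by Benjamini-Hochberg over all genes tested, to which every adjusted p refers unless another tool is named. "Rose" and "fell" mean an adjusted p below 0.05, and the threshold adds an absolute log2 fold change above 1. Interaction values are the knockdown effect under PE minus the one without it. Total counts were between 24065539 and 28603854, and intervals and floors (3 counts) cover counting error only.

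All 10 genes are named. From each list of other genes, at most 3 are named in a comparison, those that changed most past the threshold, whose mean log2 CPM exceeded 0 and whose groups did not overlap. Outside this rule stand Tlr1, Tlr5, Tlr8, Tlr9, Tlr10, Tlr12, Tlr13, Ly86, Ly96, Unc93b1, Ticam2, Ifnb1, Il6, Tnf and the cell type markers named. These were chosen after their values were seen. The genes, lists and tests were chosen with earlier results of these data known. Similarity of patterns was measured among genes whose mean log2 CPM exceeded 1. Promoter sequences come from a RefSeq table of the GRCr8 build and were matched by gene ID. Promoters of 3 of the 10 genes are not analysed here. The plan had foreseen sequences of the files' own build, and no coordinate of the 2 builds was mixed. Other settings tried were RLE size factors, DESeq2 1.42.0, no filter, the groups of each comparison alone, a replicate block, limma 3.58.1 after quantile normalisation of log2(FPKM + 1) or log2(FPKM + 0.1), adjusted p alone, and each sample left out. The fits were tested on simulated data.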

Additional observations from a re-analysis of the deposited data

Results flagged for a closer look

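The knockdown effect on Tlr2 differed between cells with and without PE, by a test of the difference itself (interaction of -0.71 on the log2 scale, standard error 0.15, adjusted p = 0.0227 by the quasi-likelihood test of edgeR). All 3 siSlc39a2 samples were above all 3 siNeg samples, and likewise with PE. Over the other settings the adjusted p was between 0.00275 and 0.0532, and with each sample left out between 0.0218 and 0.0685. Groups of 3 samples were too small to look for single outlying samples.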

How the results depend on the processing

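Among the alternative values for the 10 genes, 655 kept their direction and their side of an adjusted p of 0.05, 26 lost the call, 16 gained it and 0 were called in the opposite direction. Tlr2, Tlr3 and Tlr4 kept their calls in both knockdown comparisons under every alternative. With limma on log2(FPKM + 1), 2 genes in place of 4 were past the threshold in siSlc39a2 against siNeg and 1 in place of 4 in siSlc39a2 PE against siNeg PE. The pseudocount of 1 exceeds the mean FPKM of Tlr4 and Tlr7 in every group and shrinks their differences. Tlr2, whose mean FPKM was above 1 in every group, was also not past the threshold in siSlc39a2 PE against siNeg PE. Its lowest log2 fold change over the settings there was 0.857. By adjusted p alone, 4 genes in place of 0 were counted in siNeg PE against siNeg, 1 in place of 0 in siSlc39a2 PE against siSlc39a2 and 1 in place of 0 in the interaction. With each sample left out, the count in siSlc39a2 PE against siSlc39a2 was 0 to 1. Fitted on the 2 groups alone, both knockdown comparisons and siNeg PE against siNeg gave no value for Tlr7, which the filter removed, and 3 genes were past the threshold in either knockdown comparison. Over all genes, the limma fit gave 325 higher and 282 lower in siSlc39a2 against siNeg, where edgeR gave 638 and 728. It gave 162 and 124 against 531 and 391 in siNeg PE against siNeg, 361 and 309 against 842 and 779 in siSlc39a2 PE against siNeg PE, 307 and 269 against 886 and 583 in siSlc39a2 PE against siSlc39a2, and 35 and 47 against 63 and 75 in the interaction. Same-numbered samples did not deviate together throughout (correlations from -0.09 to 0.32, and 2, 4, 4 and 2 of 6 samples nearest to their own number in the 4 comparisons), so the numbers were not taken as pairs. With the replicate block, 49 of 50 values kept their call and Irak1 gained one in siSlc39a2 PE against siSlc39a2 (log2 fold change 0.12, adjusted p = 0.0439), and the interaction passed in 1053 genes in place of 504, against 806 by DESeq2. The cause of these changes was not tested. Tlr7 and, to a lesser degree, Tlr4 are limited by depth, and no control sample held more than 3 counts of Tlr7.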
